A study of Mus musculus with 27 samples.

Results

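Lung metastases of mouse osteosarcomas were compared by their level of transcripts of hepatocytes, the main cell type of the liver. The 7 lung metastasis arrays among the 27 arrays of the series were divided into sets chosen by Apoa1, the gene of the main protein of high-density lipoprotein, in the authors' deposited log2 values. The rule took the Apoa1 probe with the highest mean over the 27 arrays and called a lung metastasis high above a level of 10 and low below it. It put the 3 lung metastases of specimens RF-364, CR-147 and RF-379 in the high set. The low set held 4, those of CRE-155, FC-279, RF-212 and FC-28. On that scale Apoa1 was 11.96, 13.01 and 11.96 in the high set and 7.78, 6.02, 6.62 and 5.64 in the low set, so that the values nearest to the threshold were 11.96 and 7.78. The 2 liver metastases of the series were at 15.33 and 15.48.

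Total RNA of tumour tissue was measured on Illumina bead arrays, 1 array per tissue sample. All tumours came from mice with a Col2.3-Cre transgene, in which a rat Col1a1 promoter drives the Cre recombinase in the osteoblast lineage, crossed to floxed p53 mice or to LSL-p53R172H mice, all backcrossed to C57BL/6. Cre removes p53 in the first cross and switches on a mutant p53 in the second, and the labels say neither which allele a given tumour carried nor the age of the mice. Each lung metastasis has the primary tumour of its specimen among the arrays, and CR-147 also has its liver metastasis. The high and low sets share this model and the lung site, and differ in no treatment that the labels give. The labels do not say whether specimens are separate animals, so p-values measure the spread between specimens.

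Hepatocytes make most proteins of blood plasma, among them albumin, apolipoproteins, clotting factors and protease inhibitors, and carry the enzymes of the urea cycle and of drug and bile acid metabolism. These genes depend on a small set of transcription factors, which include HNF1, HNF4 and C/EBP proteins, and most are silent in bone and lung. Tissue of a lung metastasis holds tumour cells, lung epithelium, vessels and blood cells.

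Values below are log2 intensities after background correction and quantile normalization. Of the probes, 43.3% to 46.9% were detected on each lung metastasis array. The median uncorrected signal was 65.2 to 71.9 on the high arrays and 56.6 to 58.7 on the low arrays, without overlap, and its part in the differences below was not tested. FC-28 stood apart in its lung metastasis and its primary, where the mean of the osteoblast and bone matrix genes was 6.09 and 6.97, against 11.31 to 12.19 in the other lung metastases and 11.59 to 12.11 in the other primaries. Markers of alveolar type II cells, the surfactant-producing cells of the lung, had mean levels of 12.66, 10.72 and 12.36 in the high lung metastases and 11.40, 12.41, 12.18 and 12.68 in the low ones, so that both sets held lung tissue.

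The first comparison set the high lung metastases against the low ones over all genes. Because Apoa1 chose the sets on the same arrays, it is a description with no test, and a gene was counted as higher or lower where the sets did not overlap and their means differed by at least 1 on the log2 scale. Of 11547 genes detected on at least 3 of the 7 arrays, 240 were higher in the high set (2.08%) and 251 were lower (2.17%), which is 1.26% and 1.32% of all 19057 named genes. Of the 240, 79 stood on the lists of hepatocyte genes. Of the 86 genes that were higher by at least 2, 53 stood on these lists and 29 stood on no list.

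Among the 3 markers, Apoa1 was at 12.24 in RF-364, 13.28 in CR-147 and 12.23 in RF-379, and at 7.97 in CRE-155, 5.25 in FC-279, 6.44 in RF-212 and 4.68 in FC-28 (arrays are given in this order throughout), beside 15.39 and 15.48 in the liver metastases of CR-147 and RF-342. The means were 12.59 ± 0.60 (SD, n = 3) and 6.08 ± 1.46 (SD, n = 4). Ttr, which carries thyroid hormone and retinol-binding protein in plasma, was at 12.30, 12.85 and 12.27 against 7.58, 5.49, 6.61 and 4.75, a difference of 6.37 (SE 0.75). CR-147 was the highest and CRE-155 the highest of the low arrays for both genes, each of which 3 of the 4 low arrays also detected, so that the sets differed in level. Alb, which encodes albumin, was at 8.74, 9.02 and 7.39 in the high set and between 4.51 and 4.58 on the low arrays, none of which detected it. Its level in the high set was at least 8.41-fold higher. For such a bound, an undetected gene was given its own signal or the lowest signal detected on that array, whichever was larger. A division at the largest gap of Ttr or of Alb gave the same sets.

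The other genes with the highest differences were genes of secreted plasma proteins. Ahsg, which encodes fetuin-A, an inhibitor of mineral deposition, was at 11.90, 12.50 and 11.81 against 7.12, 5.02, 5.38 and 5.11, a difference of 6.41 (SE 0.61). Apoa4, an apolipoprotein of intestine and mouse liver, was at 10.67, 11.55 and 9.80, was detected on no low array (4.58 to 4.86), and was at least 41.3-fold higher. Apoa2, the second protein of high-density lipoprotein, was at 11.89, 12.75 and 11.80 against 8.19, 5.60, 6.70 and 5.12. The rule for named genes required every high array to lie above every low array. CR-147 was the highest of the 3 for each of these genes.

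Hpx, which binds free haem, was at 12.12, 12.76 and 11.33 against 8.13, 5.95, 6.17 and 6.78, a difference of 5.32 (SE 0.67). Fga, a chain of fibrinogen, was at 10.19, 10.91 and 11.75 against 6.47, 4.94, 6.81 and 4.96, and here RF-379 was the highest. Kng1, which encodes the kinin precursor kininogen, was at 11.47, 12.10 and 11.84 against 7.63, 5.55, 7.92 and 5.97. The high arrays were closer to each other for Kng1 than the low arrays were. Hamp, the iron hormone hepcidin, was the most uneven within the high set, at 10.91, 12.47 and 8.49 against 7.61, 5.03, 6.17 and 4.69, a difference of 4.75 (SE 1.25). Ambp was higher by 4.65 (SE 0.75) and Apof by 4.65 (SE 0.29). Apoh, a phospholipid-binding plasma glycoprotein, was detected on no low array and was at least 16-fold higher.

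**Figure D1:**
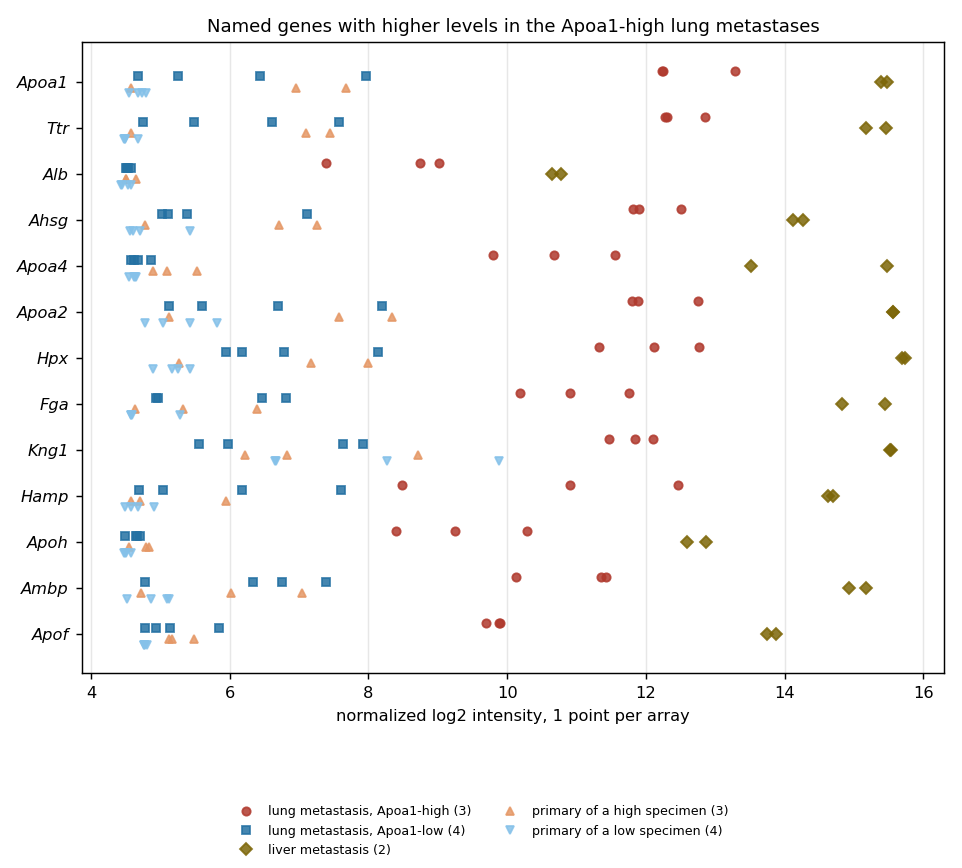
Log2 levels of the 12 genes with the highest difference, which include the markers Apoa1 and Ttr, and of Alb, 1 point per array. The arrays are the high and low lung metastases, the liver metastases and the primaries of the high and low specimens. For Alb the high lung metastasis arrays lie at 7.39 to 9.02 and the low ones at 4.51 to 4.58, and Apoa1 reaches 15.48 in the liver metastases.

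The promoters of 2 of these genes are shown because they hold the core motif of HNF1, a transcription factor of hepatocytes. The windows are the 250 bases before the start of the gene in RefSeq (build GRCm38.p6), on the gene's own strand, with the 6 bases of the motif in capitals. They lie on the plus strand at chr5:90460620-90460869 for Alb, where the motif GTTAAT begins 32 bases before the start, and at chr3:83025903-83026152 for Fga, where its reverse complement begins 43 bases before it.
Alb: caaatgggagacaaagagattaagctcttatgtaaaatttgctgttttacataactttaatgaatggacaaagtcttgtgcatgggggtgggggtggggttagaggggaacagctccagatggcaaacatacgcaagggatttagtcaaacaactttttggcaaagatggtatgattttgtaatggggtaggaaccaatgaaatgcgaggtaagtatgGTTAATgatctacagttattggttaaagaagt
Fga: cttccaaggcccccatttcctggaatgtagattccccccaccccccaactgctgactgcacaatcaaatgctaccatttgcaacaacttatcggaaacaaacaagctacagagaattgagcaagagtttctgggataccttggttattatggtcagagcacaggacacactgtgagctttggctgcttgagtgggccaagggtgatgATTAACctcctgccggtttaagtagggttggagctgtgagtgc
Searched on both strands, the core GTTAAT was found in 7.49% of the 27025 genes of the table with such a window and in 22.7% of the 176 hepatocyte-list genes with one. Among the 79 list genes counted as higher, 64 had a window and 25% of these held it. The full HNF1 palindrome, which contains the core, was in 0.0111% of all windows and in 0 of the 176 list genes. The HNF4 motif CAAAGTCCA was in 0.451% of all windows and 1.7% of those of the lists, and the C/EBP motif TTGCGCAA in 0.185% of all windows and in 1 of the 176. Of the 64 list genes counted as higher, 3.12% held the HNF4 motif and 0 the C/EBP motif. The windows of Apoa1, Ahsg, Apoa4, Apoa2, Hpx, Hamp, Apoh and Ambp held none of these letters. Windows of Ttr, Kng1 and Apof are not given here, so the motifs are not reported for these genes. A match is a description and was not tested as a binding site.

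The 11 hepatocyte lists held 226 genes, of which 201 were on the array, 79 were higher in the high set and 2 were lower, with a median difference of 0.88. Over all 19057 named genes the median was -0.01. Only 150 of the 201 passed the detection filter, and 40 of these passed only through the high arrays, so the count is no support of its own. The high lung metastases detected 161, 175 and 152 of the 201 genes, the low ones 99, 94, 99 and 77, and the liver metastases 188 and 190. Without 1 of the high arrays, 43 (RF-364), 38 (CR-147) or 46 (RF-379) list genes were counted as higher, because genes detected on the high arrays alone then no longer reached 3 arrays. Without any 1 low array 79 to 83 were counted.

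By role, apolipoproteins, protease inhibitors, coagulation genes and plasma carriers had the highest medians. Of the apolipoproteins and lipid carriers, 10 of 13 were higher, with a median difference of 2.49. Apob, the protein of very-low-density lipoprotein, was at 7.15, 8.22 and 6.88 against 4.70 to 5.08, at least 4.31-fold higher. Of the protease inhibitors, 10 of 17 were higher (median 2.46). Serpina1b, an alpha-1-antitrypsin gene, was at 11, 11.38 and 11.62 against 7.81, 6.68, 7.03 and 7.49, although its probe may be shared with its near-identical paralogs. Serpinf2, the inhibitor of plasmin, was at 7.84, 8.96 and 8.56, at least 8.86-fold higher. Of the coagulation genes, 12 of 19 were higher (median 2.02). They included Fgg by 4.12, F2, which encodes prothrombin, by 3.12, and Plg, which encodes plasminogen, at 7.38, 8.73 and 8.53 and at least 7.48-fold higher. Of the plasma carriers, 8 of 16 were higher (median 1.55), and of the complement genes 7 of 15 (median 0.76), among them Cfi by 2.49. C9, the pore-forming component, was detected on no low array and was at least 3.30-fold higher.

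The enzyme, transporter and transcription factor lists had lower medians. Their mean levels in the liver metastases were 8.64 to 11.28 (median of the 2 arrays). Those of apolipoproteins, protease inhibitors, coagulation genes and plasma carriers were 11.81 to 12.7. The medians of all lists include undetected genes. Over genes that passed the detection filter they were 0.33 to 1.44 here, against 2.1 to 3.19 for those highest lists. The part of the liver level in this order was not tested. Of the cytochrome P450 and drug metabolism genes, 10 of 30 were higher and 1 was lower (median 0.58). Cyp2c70, which makes muricholic bile acids in mice, was at 8.61, 9.57 and 7.97 and at least 10.6-fold higher. Cyp4a14, a fatty acid hydroxylase, was at 8.32, 9.82 and 8.67 and at least 12.4-fold higher. Cyp2e1, by contrast, was at 10.75, 11.42 and 10.24 against 11.28, 8.64, 6.13 and 6.48, with CRE-155 among the high arrays. Of the amino acid and urea genes, 6 of 20 were higher (median 0.74), and of the sugar and lipid enzymes 6 of 28 (median 0.73). Cps1, the first enzyme of the urea cycle, was at 7.96, 9.06 and 6.87 against 4.49 to 4.67, at least 6.29-fold higher. Slco1b2, which takes bile acids and drugs up into hepatocytes, was at 7.69, 8.94 and 8.69, at least 8.76-fold higher, and was 1 of 3 among 15 transporters and receptors. Of the liver transcription factors, 3 of 13 were higher. Hnf4a was at 7.19, 7.45 and 7.30 against 5.70, 5.25, 5.44 and 5.80, a difference of 1.76, Foxa3 was higher by 1.84 and Nr1h4, the bile acid receptor, by 1.36.

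The acute phase list had the lowest median of the hepatocyte lists. Of its 15 genes on the array 4 were higher and 1 was lower, with a median difference of 0.01, which turned to -0.01 without RF-364 and -0.02 without CRE-155, and 2 were higher without any 1 high array. Its mean level was 7.22 to 7.60 in the high and 6.39 to 7.09 in the low set. Crp, at 7.56, 8.08 and 9.26 and at least 7.94-fold higher, and Apcs, at least 8.57-fold higher, both encode pentraxins. The lower gene, Saa3, is a serum amyloid A gene that tissues outside the liver also express. It was at 7.39, 8.32 and 9.94 against 12.82, 10.31, 10.88 and 11.77. Hp, which encodes haptoglobin, had a difference of -0.43 with overlapping sets.

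Markers of other sources were given the same counts. Of 15 markers of Kupffer, endothelial and stellate cells of the liver, 0 were higher, with a median difference of 0.02. Clec4f, a Kupffer cell receptor, was at 4.71, 5.64 and 5.66 against 4.61 to 4.68, beside 10.35 and 10.17 in the liver metastases. Its sets did not overlap, but its means differed by less than the 1 that the count requires. The count of 0 therefore does not show that such transcripts were absent. Stab2, a scavenger receptor of liver sinusoids, was at 5.89, 7.07 and 5.82 against 6.87, 7.44, 5.78 and 5.52. The bile duct, pancreas and kidney lists had 0 higher genes of 9, 12 and 9. Of the intestine list 1 of 14 was higher, which was Apoa4, and of the yolk sac list 1 of 12, which was Apob, while Rhox5 was lower. Of the choroid plexus list, another tissue that makes Ttr, 1 of 6 was higher, Ttr itself, and 1 was lower, Clic6, at 7.01, 8.64 and 8.78 against 9.59, 9.10, 9.27 and 10.15. The mean of this list was 7.76 to 8.21 in the high and 6.98 to 7.56 in the low set, and its median difference was -0.07. In bulk tissue, fewer cells of a type and less RNA per cell cannot be told apart.

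**Figure D2:**
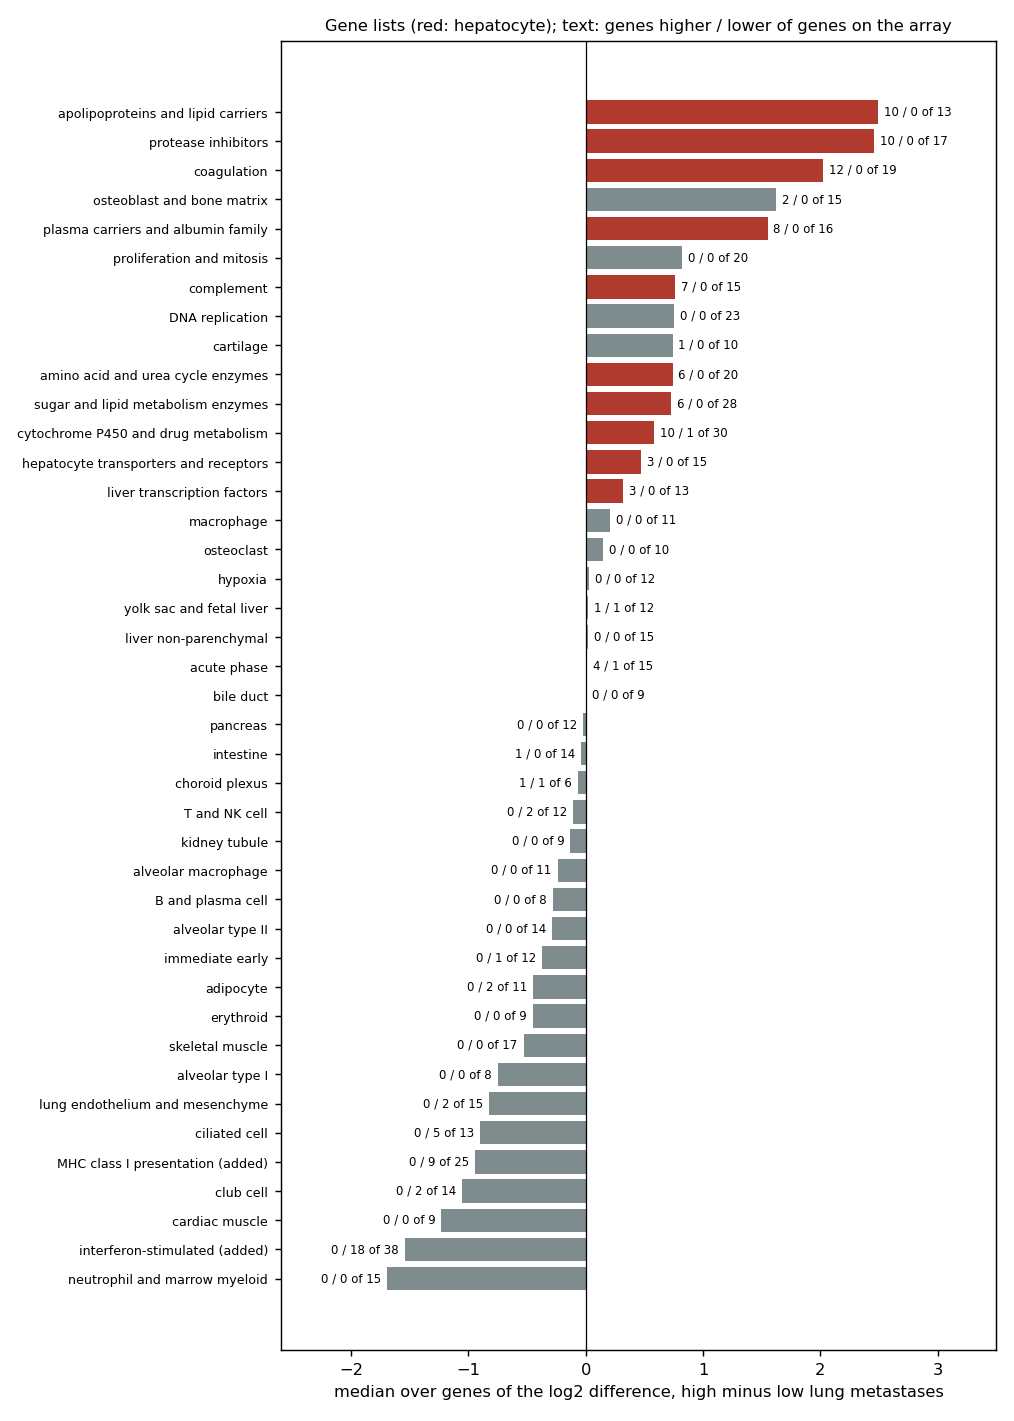
Median log2 difference, high minus low lung metastases, of the genes of each list (bars, hepatocyte lists in red), with the number of genes higher and lower of those on the array beside each bar. The apolipoprotein list lies at 2.49 and the neutrophil list at -1.69, and the osteoblast bar at 1.62 turns to -0.08 without FC-28, which the plot includes.

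The levels were then set beside the liver metastases, which themselves hold tumour and liver tissue. For 48 hepatocyte genes detected on both liver arrays and all 3 high arrays and on at most 1 low array, the linear level was expressed as a percent of the mean liver metastasis level. The median was 2.06% in RF-364, with quartiles of 1.72% and 3.20%, 4.43% in CR-147 (3.40% and 6.55%) and 2.86% in RF-379 (1.83% and 4.99%). In the low lung metastases it was 0.208% to 0.297% and in the primaries of the 7 specimens 0.184% to 0.268%, where most of these genes were not detected. Against its own liver metastasis, CR-147 had a median of 4.29%. That liver array also held lung transcripts, with Scgb1a1 at 13.01 against 4.91 in the liver metastasis of RF-342, and their part in these percents was not tested. Since the genes were picked for their detection, the gap between the sets is a description.

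The 48 genes did not stand at 1 common percent. Alb was at 24.9%, 30.4% and 9.16% of the mean liver metastasis level in RF-364, CR-147 and RF-379. Its 1 probe was at only 10.77 and 10.64 in the liver metastases, where Apoa1 was at 15.39 and 15.48. The part of the probe's response in the percent of Alb was not tested. Mbl2, a lectin of the complement system, was at 1.07%, 2.16% and 1.44%, and Hgd, an enzyme of tyrosine breakdown, at 1.32%, 2.58% and 1.49%. The order of the 3 arrays was therefore not the same for Alb as for these genes. With the 144 hepatocyte genes detected on both liver arrays and all 3 high arrays, whatever the low arrays detected, the medians were 4.02%, 6.56% and 5.02%. Genes that lung or tumour also expresses are among them, and list genes that any high array did not detect are left out.

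**Figure D3:**
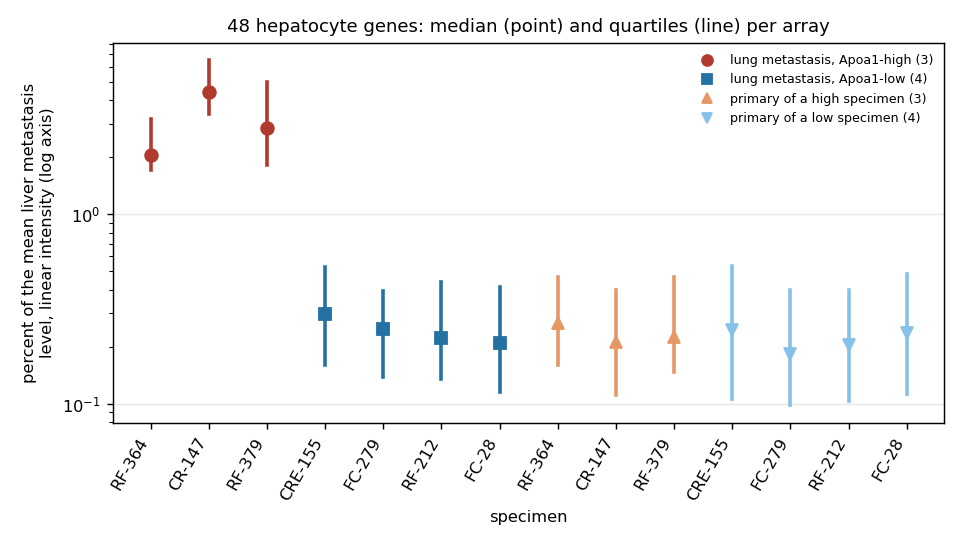
Level of 48 hepatocyte genes as a percent of the mean of the 2 liver metastases (log axis) in each lung metastasis and each primary of the 7 specimens, with the median as a point and the quartiles as a line. The medians of the high lung metastases are 2.06%, 4.43% and 2.86%, and those of the low ones 0.208% to 0.297%.

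The genes that were lower in the high set were mainly of other kinds. Irf7, the transcription factor that amplifies type I interferon production, was at 7.13, 5.54 and 5.93 against 10.74, 8.36, 10.84 and 7.23, a difference of -3.09 (SE 1.13). Isg15, a ubiquitin-like interferon-induced protein, was at 9.35, 7.49 and 9.38 against 12.58, 9.63, 12.78 and 10.15, and Usp18, which removes it from its targets, was at 8.86, 8.19 and 8.57 against 11.53, 9.82, 12.44 and 9.78. Oasl1 was at 6.36, 5.53 and 5.44 against 9.79, 7.08, 10.01 and 6.46, a difference of -2.56 (SE 1.11). CRE-155 and RF-212 were the 2 highest arrays for all 4 genes, and the nearest low array lay close to the high set for Irf7, Isg15 and Oasl1.

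A pair of lists was added after these genes had been seen. Of 38 interferon-stimulated genes on the array, 18 were lower and 0 higher, with a median difference of -1.54, and they included Ifit2, Ifit3, Cmpk2, Rtp4, Gbp2 and Igtp. Of 25 genes of MHC class I presentation, which shows peptides to cytotoxic T cells, 9 were lower and 0 higher (median -0.94, and -0.52 without CR-147). Tap1, the peptide transporter, had a difference of -1.63, and H2-Q6 was at 7.50, 6.73 and 7.58 against 10.37, 8.39, 11.11 and 9.05. The H2-Q and H2-T genes are near-identical paralogs, so their probes may read each other's transcripts. The interferon list had mean levels of 7.55, 6.70 and 7.01 in the high and 8.77, 7.88, 9.38 and 8.06 in the low lung metastases, beside 7.85 and 8.45 in the liver metastases. Since these genes led to the lists, the counts are no evidence of their own. Beside them, 2 of 12 T and NK cell genes were lower (median -0.11): Nkg7, a granule protein of cytotoxic cells, with a difference of -1.60, and Cd3e, a chain of the T cell receptor complex, with -1.50.

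Il1r2, the decoy receptor of interleukin 1, was at 5.29, 4.82 and 5.85 against 8.55, 6.33, 8.17 and 10.44. Cyp4f18, a fatty acid hydroxylase of neutrophils, was at 5.46, 6.22 and 6.80 against 7.93, 7.92, 9.20 and 10.53. FC-28 was the highest array for both. Of the 15 neutrophil and marrow genes 0 were counted as lower, with a median difference of -1.69 and a mean level of 8.51, 7.50 and 9.85 against 11.04, 9.28, 9.16 and 10.75. RF-379 overlapped with the low arrays, and 7 were lower without it, while 2 were lower without RF-212 and the median was -0.64 without CR-147 and -1.03 without FC-28. Of the 11 macrophage genes 0 were counted, with a median of 0.21. Slfn1 had a difference of -2.22 (SE 0.89).

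Avil, an actin-binding protein of the villin family, was at 5.80, 5.03 and 5.39 against 11.83, 8.51, 9.15 and 6.00, a difference of -3.47 (SE 1.43), with CRE-155 the highest array and FC-28 close to the high set. Tmem252 was at 5.79, 5.57 and 5.87 against 8.79, 7.21, 8.34 and 7.56. Erdr1 was at 7.14, 9.71 and 9.75 against 11.99, 11.83, 11.06 and 11.62, and the primaries of the same specimens were also apart, at 6.26, 9.11 and 10.15 against 12.79, 12.53, 13.22 and 10.69. Erdr1 was named here because the lung metastasis sets did not overlap. The share of all genes whose primaries are apart in this way was not counted, and Erdr1 did not pass the test in the primaries given below.

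**Figure D4:**
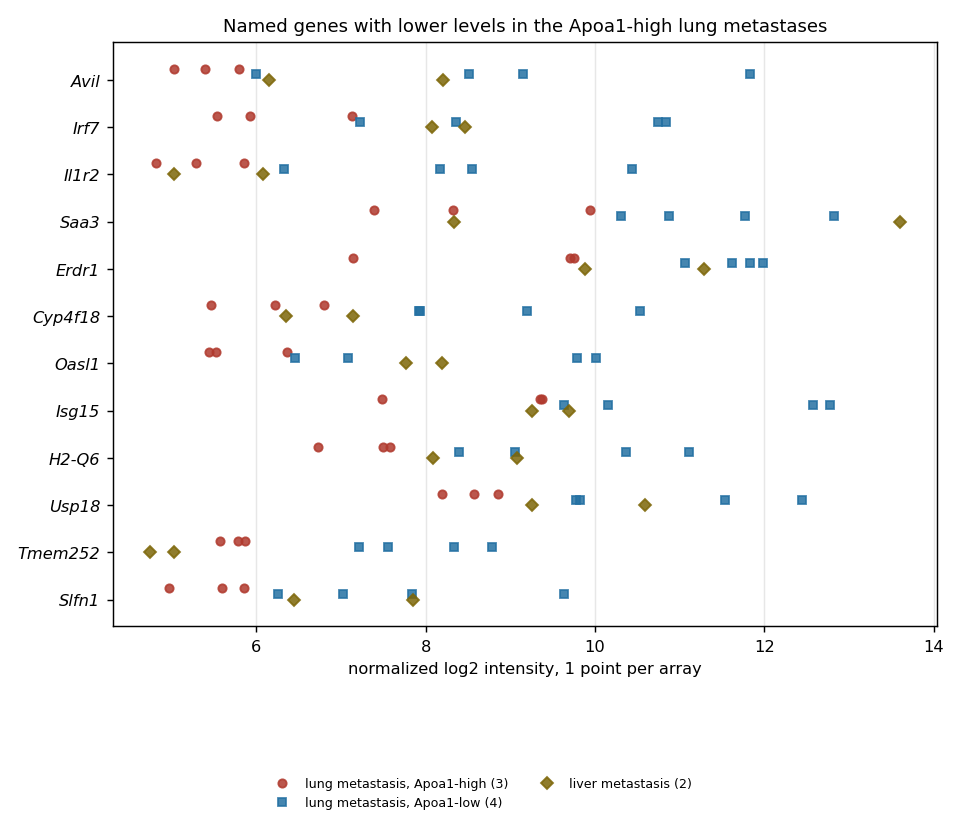
Log2 levels of the 12 genes with the lowest difference on each high lung metastasis array, low lung metastasis array and liver metastasis array, 1 point per array. Irf7 lies at 5.54 to 7.13 on the high arrays and 7.23 to 10.84 on the low arrays.

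Among lung cell types, the ciliated cell list had 5 of 13 genes lower and 0 higher, with a median difference of -0.90. The 5 were Tekt1, 1110017D15Rik, Dynlrb2, Rsph1 and Cfap126, at -1.38 to -1.68. Of the club cell list 2 of 14 were lower (median -1.05), Ces1d and Cyp2f2, the P450 that stands on the club cell and the hepatocyte lists and was at 10.46, 11.73 and 13.06 against 13.73, 13.44, 13.18 and 14.64. Of the lung endothelium list 2 of 15 were lower, Foxf1, a transcription factor of lung mesenchyme and capillaries, with a difference of -2.09, and Limch1, with -1.17. Of the alveolar type II list 0 of 14 differed, and its median of -0.29 turned to 0.34 without CR-147. These counts depended on single arrays. Without RF-364, 1 ciliated gene was lower (median -0.59), and without any other 1 array 5 or 6 were. For club cell genes 7 were lower without RF-379, 5 without RF-212 and 1 without CR-147 or FC-28 (median -0.61 without FC-28). For endothelial genes 4 were lower without CRE-155, 3 without RF-379 and 1 without CR-147 (median -0.44) or FC-28 (median -0.32).

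Bone and proliferation genes depended on FC-28 and RF-364. The osteoblast and bone matrix list had a median difference of 1.62 with 2 of 15 genes higher, Ibsp and Sp7, and a median of -0.08 without FC-28. Of the proliferation list 0 of 20 were counted, with a median of 0.82, and of the DNA replication list 0 of 23, with a median of 0.75. Without FC-28 these medians were 0.11 and 0.39, the second was 0.42 without RF-379, and without RF-364 they were 1.19 and 1.28, with 4 and 8 genes higher. Of the cartilage list 1 of 10 was higher, Col9a1, a chain of type IX collagen, at 6.94, 7.30 and 7.53 against 5.10, 4.64, 4.98 and 4.37, and 0 were counted without RF-364 or RF-379.

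The scaling of the arrays set the balance of these counts. When arrays were scaled to 1 median instead, 392 genes were higher and 119 lower, so that 76.7% of the counted genes were higher, against 48.9%, and the median over the genes tested moved to 0.17. The lists named above kept the sign of their median under median scaling, quantile normalization without background correction and the authors' series matrix.

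The second comparison asked whether the primaries of the high specimens differed from those of the low specimens, on arrays that the rule did not use. Hepatocyte transcripts were lower in these primaries than in the high lung metastases. Apoa1 was at 7.67 in the primary of RF-364, 4.58 in that of CR-147 and 6.96 in that of RF-379, with 4.55 to 4.79 in those of the low specimens, and Ttr was at 7.45, 4.57 and 7.10 in the same order. The same 2 primaries, RF-364 and RF-379, stood above that of CR-147 for Ahsg, at 7.26, 4.78 and 6.71, for Apoa2, at 8.34, 5.13 and 7.57, and for Hpx, at 8, 5.27 and 7.17. For these 5 genes CR-147 thus had the highest level of the lung metastases and the lowest of these 3 primaries.

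Over all genes, limma called 0 of 11545 genes between the 2 sets of primaries (0% called). At an unadjusted p under 0.05 there were 235 genes higher in the primaries of the high specimens and 118 lower, where 577 would be expected by chance, and the smallest adjusted p was 0.998. The genes with the smallest p were Ear10, an eosinophil ribonuclease gene, at 7.55 ± 0.34 (SD, n = 3) against 5.29 ± 0.51 (SD, n = 4), Klf1, the erythroid transcription factor, and Gp5, a platelet glycoprotein, with differences of 2.27 (SE 0.34), 2.23 (SE 0.38) and 1.75 (SE 0.33). Ltf, which encodes lactoferrin of neutrophil granules, was at 10.97 ± 1.41 against 7.15 ± 1.00, a difference of 3.82 (SE 0.74). In the other direction Ddc, which makes dopamine and serotonin, had -3.24 (SE 0.70), Heph -2.14 (SE 0.48), Tagln3 -1.22 (SE 0.29) and Myog, a muscle transcription factor, -1.59 (SE 0.39). None passed the test, with an adjusted p of 0.998 for each. On simulated data this comparison recovered 0% of differences of 1 on the log2 scale, 41.8% of those of 2 and 66.7% of those of 4.

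The third comparison set each lung metastasis against its own primary, in 1 limma fit of the 14 arrays with the specimen as a block and a separate effect for each set. In the high specimens 258 of 12526 genes rose in the lung metastasis (2.06%) and 21 fell (0.168%). In the low specimens 887 rose (7.08%) and 457 fell (3.65%). Of the genes that rose, 164 were shared, which is 63.6% of those of the high and 18.5% of those of the low specimens, and 7 of those that fell were shared (33.3% and 1.53%). The sets have different numbers of specimens, and the difference between their effects holds the contrast that chose the sets and was not tested. The counts also depended on the shared fit. With each set fitted alone, 253 of 11450 genes rose and 51 fell in the high specimens. In the low specimens 403 of 11829 then rose and 49 fell.

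Lung epithelial genes led both sets. Scgb1a1, the secretoglobin of club cells, was higher in the lung by 10.24, 11.18 and 8.52 in the high pairs, and limma gave 9.98 (SE 0.51, adjusted p 0.000114). In the low pairs it rose by 10.57 (SE 0.44, adjusted p 2.05e-05). Sftpc, surfactant protein C, rose by 9.06 in each set (SE 0.32 and adjusted p 2.86e-05 in the high, SE 0.27 and adjusted p 9.14e-06 in the low specimens). Cxcl15, the lung chemokine lungkine, was detected in no primary of either set and was at least 232-fold and at least 210-fold higher. Of 14 alveolar type II genes tested, 12 rose in each set, and of 13 club cell genes 6 rose in the high and 9 in the low specimens.

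Of 11 ciliated cell genes, 2 rose in the high and 9 in the low specimens, counts that were not tested against each other. Dynlrb2, a dynein light chain, was higher by 3.13, 4.40 and 3.22 in the high pairs (3.58, SE 0.29, adjusted p 0.000629) and by 5.80, 5.44, 5.48 and 6.11 in the low pairs, where no primary detected it and it was at least 35.2-fold higher. Rsph1, a protein of the radial spokes of cilia, was higher by 1.05, 3 and 2.25 in the high pairs (2.10, SE 0.37, adjusted p 0.0268) and by 4.35, 3.23, 4.01 and 3.80 in the low pairs (3.85, SE 0.32, adjusted p 0.000485). The 2 sets of pairs do not overlap for either gene. Both genes had already been counted as lower in the high lung metastases, which enter these differences, so this is a description.

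Neutrophil and marrow myeloid genes had calls in opposite directions. Of 14 tested, 3 fell in the high specimens (median -1.40) and 9 rose in the low specimens (median 2.50). Ngp, a granule protein of developing neutrophils, had differences of -2.96, -3.40 and -2.97 in the high pairs (-3.11, SE 0.43, adjusted p 0.0075) and of 2.99, 3.37, 0.92 and 2.70 in the low pairs (2.50, SE 0.37, adjusted p 0.0066). Camp, the cathelicidin gene, fell by 2.83 in the high specimens (log2, SE 0.56, adjusted p 0.0443) and rose by 2.55 in the low ones (SE 0.48, adjusted p 0.0178). Prtn3, a granule protease, fell by 2.79 and rose by 2.50 (adjusted p 0.018 and 0.00891). Every high pair lay below 0 and every low pair above it for these 3 genes.

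Genes of mature neutrophils passed the test in the low specimens. S100a9, a subunit of calprotectin, was higher by 2.42, 3.31, 2.82 and 2.39 (2.73, SE 0.27, adjusted p 0.0012), and in the high pairs it was at -0.69, -1.91 and -0.60 (adjusted p 0.206). Retnlg rose by 3.19 (SE 0.20, adjusted p 0.000111) in the low specimens, with values of -0.36, -1.26 and -0.94 in the high pairs. The primaries entered these differences with a list mean of 9.63, 8.88 and 11.22 in the primaries of the high specimens and 8.26, 6.83, 7.49 and 8.77 in those of the low ones. Without the pair of RF-364 or of CR-147, or without the specimen block, 0 list genes fell in the high specimens, and without that of RF-379 1 fell and 1 rose. In the low specimens 8 or 9 rose without any 1 pair, and 3 without the specimen block.

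**Figure D5:**
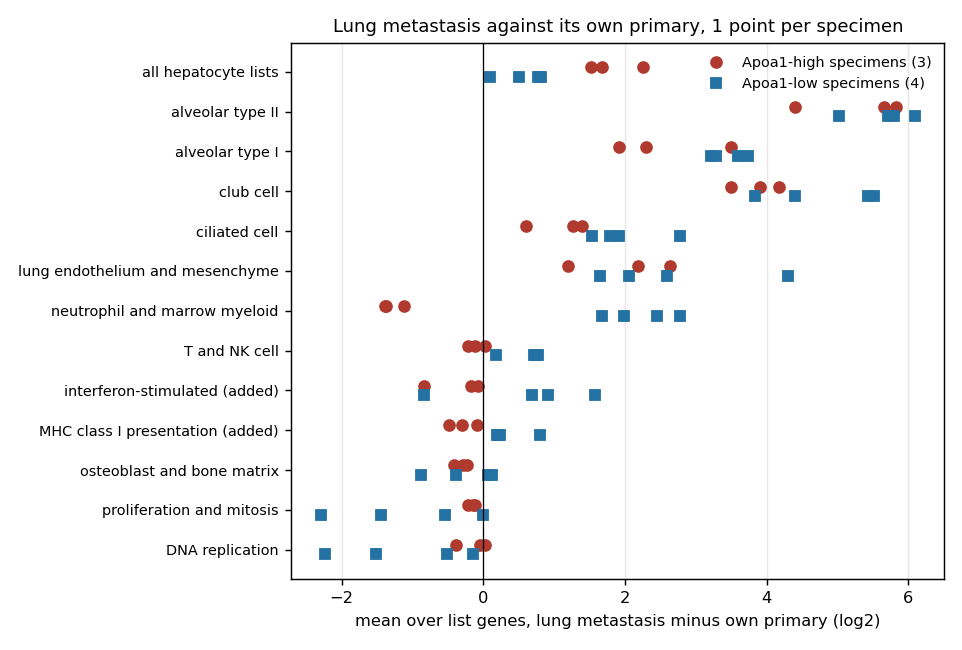
Lung metastasis minus own primary (log2), mean over the genes of each list, 1 point per specimen, high and low specimens apart. The neutrophil list lies at -1.12, -1.39 and -1.37 in the high specimens and between 1.67 and 2.78 in the low ones.

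DNA replication and mitosis genes, interferon genes and lymphocyte genes had calls in the low specimens, and the difference from the high specimens was not tested. Of 21 DNA replication genes 8 fell in the low specimens (median -1.24) and 0 in the high specimens (median -0.09). Among them Mcm5, a subunit of the replicative helicase, fell by 1.39 (adjusted p 0.0378) and Cdt1, a licensing factor, by 1.58 (adjusted p 0.0381). Of 16 mitosis genes 4 fell in the low and 0 in the high specimens, of 34 interferon-stimulated genes 6 rose and 0, and of 8 T and NK cell genes 3 rose and 0. The low specimens were uneven. Lung minus primary, the interferon list mean was 1.58, 0.69, 0.91 and -0.84 in CRE-155, FC-279, RF-212 and FC-28. In the high specimens it was -0.18, -0.84 and -0.07. The DNA replication mean was -0.14, -0.51, -1.52 and -2.23 in the low and -0.38, -0.05 and 0.02 in the high specimens. The calls of these lists depended on RF-212, without which 0 DNA replication, 0 mitosis, 1 interferon and 0 lymphocyte genes were called. Over all genes, calls in the low specimens were also fewer without RF-212, with 363 that rose and 81 that fell, against 887 and 457. Without FC-28, 4 DNA replication and 15 interferon genes were called, and without the specimen block 0 of either.

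Of 17 muscle genes, 5 fell in the high and 14 in the low specimens. Acta1, skeletal muscle actin, fell by 6.79 in the high (SE 0.85, adjusted p 0.00472) and by 6.20 in the low specimens (SE 0.74, adjusted p 0.00258). Mb, myoglobin, was at least 37.2-fold lower in the high lung metastases. Osteoblast and bone matrix genes had 0 calls in either set, with medians of -0.18 and -0.21. Of the hepatocyte lists, 74 genes were among the 258 that rose in the high specimens and 20 among the 887 of the low specimens, which is a description because Apoa1 chose the sets. Without 1 of the high pairs 26 to 30 list genes rose. Lung minus primary, Apoa1 itself was 4.57, 8.70 and 5.27 in the high pairs and 3.23, 0.58, 1.65 and 0.13 in the low pairs.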

How the data were processed

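The authors deposited bead files whose columns are, per the file headers, the average signal of each probe, an intensity on a linear scale that is not normalized, and a detection score, of which 1 minus the score served as the detection p. The log2 values of the authors' series matrix have a median of 5.9 on every array and lie within 0.606 of quantile-normalized log2 signals. Per the submitters' processing notes BeadStudio was used, with no version.

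Here the intensities of 45281 probes on 27 arrays were corrected for background and quantile normalized with neqc (offset 16) of limma 3.58.1 in R 4.3.3. Detection meant a detection p below 0.05. Probes were named through the platform annotation: 34885 had 1 symbol, 18 several and 10378 none, and 34807 matched a RefSeq entry. They cover 19057 genes, each read by its probe with the highest mean. No 2 arrays were duplicates (highest correlation 0.978 across probes), and the number of arrays limits the precision. Nothing used here gave a slide or scan date.

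Tests were two-sided, with lmFit and eBayes and Benjamini-Hochberg adjustment over all genes tested at 0.05. The specimen number pairs the arrays: deviations of a lung metastasis and its own primary correlated at 0.31 to 0.53, best with its own in 7 of 7. On simulated data the paired fit recovered 71.6% of differences of 2 in each set, with 7 and 6 false calls among 12526 genes. Figures were drawn with matplotlib 3.10.9.

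The sets, the lists and the rule for named genes were chosen with earlier results of these data known. The rule takes the 3 markers, the 12 highest and 12 lowest differences among genes without overlap that are detected on every array of the higher set, the 8 largest per direction in the tested comparisons (the 4 smallest p where fewer than 5 passed), and examples from the lists, some picked for their role. It leaves out clone and predicted names. Alternatives were other values, scalings, filters, probes, array weights, fits without the block, each set alone and each specimen left out.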

Additional observations from a re-analysis of the deposited data

Results flagged for a closer look

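The highest or lowest of 7 arrays stood far from the others, by Dixon's test, in 4 of 85 groups of list means, where chance gives about 5 per 100. The osteoblast and bone matrix mean of FC-28 was 6.09 among the lung metastases, against 11.31 to 12.19 on the other 6 arrays, and 6.97 among the primaries, against 11.59 to 12.11. FC-279 stood apart among the primaries, with a club cell list mean of 7.37, against 5.93 to 6.29, and a mean of the sugar and lipid metabolism enzymes of 6.25, against 5.16 to 5.53.

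For 2 lists every high specimen moved one way from primary to lung metastasis and every low specimen the other way, and the difference was not tested. The neutrophil list had a mean of -1.29 in the high and 2.22 in the low specimens, a difference of -3.51. The MHC class I list had -0.29 and 0.36, a difference of -0.65, with -0.09 in CR-147 and 0.19 in RF-212. This list was added after its genes had been seen to be lower in the high lung metastases, which enter these differences. How many lists would part in this way by chance was not tested.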

How the results depend on the processing

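Over the high and low lung metastases, genes counted as lower numbered 153 with the series matrix, 154 with quantile normalization without background correction and 119 with median scaling, against 251, and genes counted as higher 392 with median scaling, against 240. The hepatocyte median was 0.563 with the series matrix and 0.631 with quantile normalization without background correction. Without 1 lung metastasis, 196 to 434 genes were higher and 225 to 562 lower. Leaving out RF-364 gave 434 and 450, and leaving out RF-379 or CRE-155 gave 562 or 439 lower genes. The hepatocyte median was then 0.709 to 0.96, and the osteoblast median ranged from 2.08 (without CRE-155) to -0.0789 (reversed, without FC-28). The percent of the liver level was 4.02 in RF-364 and 5.02 in RF-379 over the 144 hepatocyte genes detected on both liver arrays and all 3 high arrays. That choice was made after the data were seen. With the series matrix the percent was 3.3 in RF-364.

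Between primaries, 0 genes were called under each alternative run. For lung against primary in the high specimens, 12 genes fell with the series matrix and 13 with quantile normalization without background correction, and with array weights 629 rose and 368 fell. With that set fitted alone 51 fell. In the low specimens 2481 fell with median scaling, where 702 rose and the median over genes was -0.35, and 403 rose and 49 fell with that set alone. The block for the specimen pairing mattered: with no replicate block, 7 fell in the high specimens, and 453 rose and 87 fell in the low ones. Without 1 pair, 93 to 340 genes rose and 1 to 56 fell in the high specimens, and 363 to 809 rose and 81 to 458 fell in the low ones. In the high specimens, 108 rose and 1 fell without RF-364, 135 and 7 without CR-147 and 93 and 3 without RF-379, while 13 fell without RF-212 and 56 without FC-28. In the low specimens, 363 rose and 81 fell without RF-212, 579 and 166 without RF-364, and 225 fell without FC-279 and 239 without CR-147, with RF-379 between them. The cause of these shifts was not tested. Of the alternative values of the main counts and medians, 103 stayed within the limits set for each and 39 moved. Of those for single genes and lists, 1850 stayed, 99 moved, 78 lost their call and 1 reversed, where reversal of a list median required a size of at least 1, so that the sign changes of the acute phase, alveolar type II and liver non-parenchymal medians without 1 array are not among them. Genes near background have only a bound, and the self-test recovered 17.9% (high) and 28.4% (low) of paired differences of 1 and 0% of those between primaries.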

Other observations

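Genes outside the liver program were also higher in the high lung metastases. Dner, a neuronal ligand of Notch, was at 10.15, 8.25 and 10.36 against 7.06, 5.20, 8.04 and 4.99, and in the primaries of these specimens at 10.91, 8.60 and 10.14 against 9.29, 8.39, 8.19 and 5.79. Ntn5 was at 7.79, 9.56 and 8.74 against 6.26, 6.42, 6.47 and 6.37. Kif5c, a neuronal kinesin, was higher by 1.82.

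The liver metastasis of CR-147 held lung transcripts. Scgb1a1 was at 13.01 there, against 4.91 in the liver metastasis of RF-342, Sftpc at 10.77 against 4.85, Cxcl15 at 9.32 against 4.52 and Sec14l3 at 8.20 against 4.54. CR-147 thus had liver transcripts in its lung array and lung transcripts in its liver array.

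CRE-155 and FC-279, of the low lung metastases, held genes of upper airway secretion and fat that reached at most 6.05 in the other lung metastases. Bpifa1 was at 11.82 and 8.47, Scgb3a1 at 11.91 and 9.74, Reg3g at 9.15 and 7.07, and Adipoq, which encodes adiponectin, at 10.57 and 7.67.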
